A study of Mus musculus with 7 samples.

Results

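The genes described here are interferon-induced genes together with the interferon regulatory factors (IRF) and the signal transducers and activators of transcription (STAT) that switch them on, measured in mouse sinoatrial node. They were chosen by symbol (Ifit, Ifitm, Ifi, Ifih, Isg, Oas, Oasl, Gbp, Irgm, Iigp, Irf, Mx or Stat followed by a digit), by a completed comparison in the deposited table and by a mean of at least 1 FPKM over both libraries. FPKM is the number of fragments scaled to the length of the transcript and the size of the library, so levels of different genes can be compared. Of 64 matching genes 57 passed, out of 15967 genes in the table. The symbol pattern also takes Irf2bp1 and Irf2bp2, which encode binding partners of IRF2 and are given apart from the IRF factors.

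The libraries came from poly-A RNA of the sinoatrial node, the pacemaker region of the right atrium, of Sv129 mice 3 weeks after birth. The Cre library was taken 6 days after tamoxifen from mice with floxed Baf250a alleles and Hcn4CreERT2 (Baf250af/f;Hcn4CreERT2), in which a tamoxifen-activated Cre is driven from the pacemaker channel gene Hcn4. The day-6 control library came from mice with the same floxed alleles and no Cre (Baf250af/f). The labels do not say whether the control mice received tamoxifen, how many mice went into a library or of which sex, and the 5 libraries of the time series are left aside. With 1 library per genotype, the differences below have no replicate check, and the genotypes could not be tested.

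Interferons bind receptors that carry JAK kinases, which phosphorylate STAT proteins. STAT proteins such as STAT2 join IRF9 in a complex that binds the interferon-stimulated response element (ISRE), while STAT pairs bind the gamma-activated site (GAS). The induced genes encode proteins that sense, degrade or sequester foreign nucleic acid, block entry through membranes or attack vacuoles that hold pathogens. Many are expressed at a basal level in heart, vessel and blood cells without infection.

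Several measurements of the whole libraries stand beside every result. Arid1a, the gene of Baf250a, had 12.3 FPKM in the Cre library and 34.9 FPKM in the control library, and its value includes exons outside the floxed part. All 18 T cell and thymocyte markers were at least 2-fold lower in the Cre library. Their summed level was 17.3 FPKM there, against 3387 FPKM in the control library, and 14 of the 18 were under 1 FPKM in the Cre library. All 14 cell cycle genes were also lower, with a sum of 107 FPKM in the Cre library and 948 FPKM in the control library. Of 15 lung and airway markers 14 were higher, with a sum of 18966 FPKM in the Cre library and 4271 FPKM in the control library. Xist had 93.2 FPKM in the Cre library and 0.379 FPKM in the control library, and the Y-linked Ddx3y had 0.0739 and 43.4 FPKM in the same order, so the libraries differ in sex. Cardiomyocyte markers lay above equal expression in 11 of 11 genes, with a median log2 ratio of 0.88 and 4 past 2-fold. Among them the atrial Myl7 had 6940 FPKM in the Cre library and 5603 FPKM in the control library, and Ttn had 43.0 and 9.31 FPKM. Among defining node genes Hcn4 was under 1 FPKM in both, at 0.719 FPKM in the Cre library and 0.605 FPKM in the control library, and Shox2 had 1.26 and 1.20 FPKM. In bulk tissue, fewer cells of a type and less RNA per cell cannot be told apart, and the part of cell makeup and sex in the results below was not tested.

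Most interferon-induced, IRF and STAT genes differed little, and the large differences lay in a few genes. Within a family they pointed both ways only among the Gbp genes and the immunity-related GTPases. Higher and lower here mean that FPKM + 1 differed at least 2-fold between the libraries, a log2 ratio of Cre over control of at least 1 in either direction. Gbp1, Ifitm1 and Iigp1 were higher in the Cre library. Gbp8, Ifi202b, Stat4, Ifi47, Gbp4, Ifi203, Isg20, Stat5b, Isg20l2 and Gbp6 were lower. The 3 higher genes are 5.26% of the members, beside 6.07% of all 13419 genes tested that were higher by the same rule. The 10 lower genes are 17.5% of the members, beside 10.4% of all genes tested. The median log2 ratio was -0.28 over the members and -0.07 over all genes tested, and 33 of 57 members lay between -0.5 and 0.5. The lower and upper quartiles were -0.88 and 0.14 over the members, beside -0.52 and 0.38 over all genes tested. After scaling to a shared upper quartile, 4 members were higher and 8 lower, beside 1342 and 1105 of all genes tested, and the median of all genes became 0.13. In the authors' deposited table Gbp8 was the only member called significant, beside 0.656% of all genes tested that this table calls lower in the Cre library. The same table calls 0.0149% of all genes tested higher and no member.

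**Figure D1:**
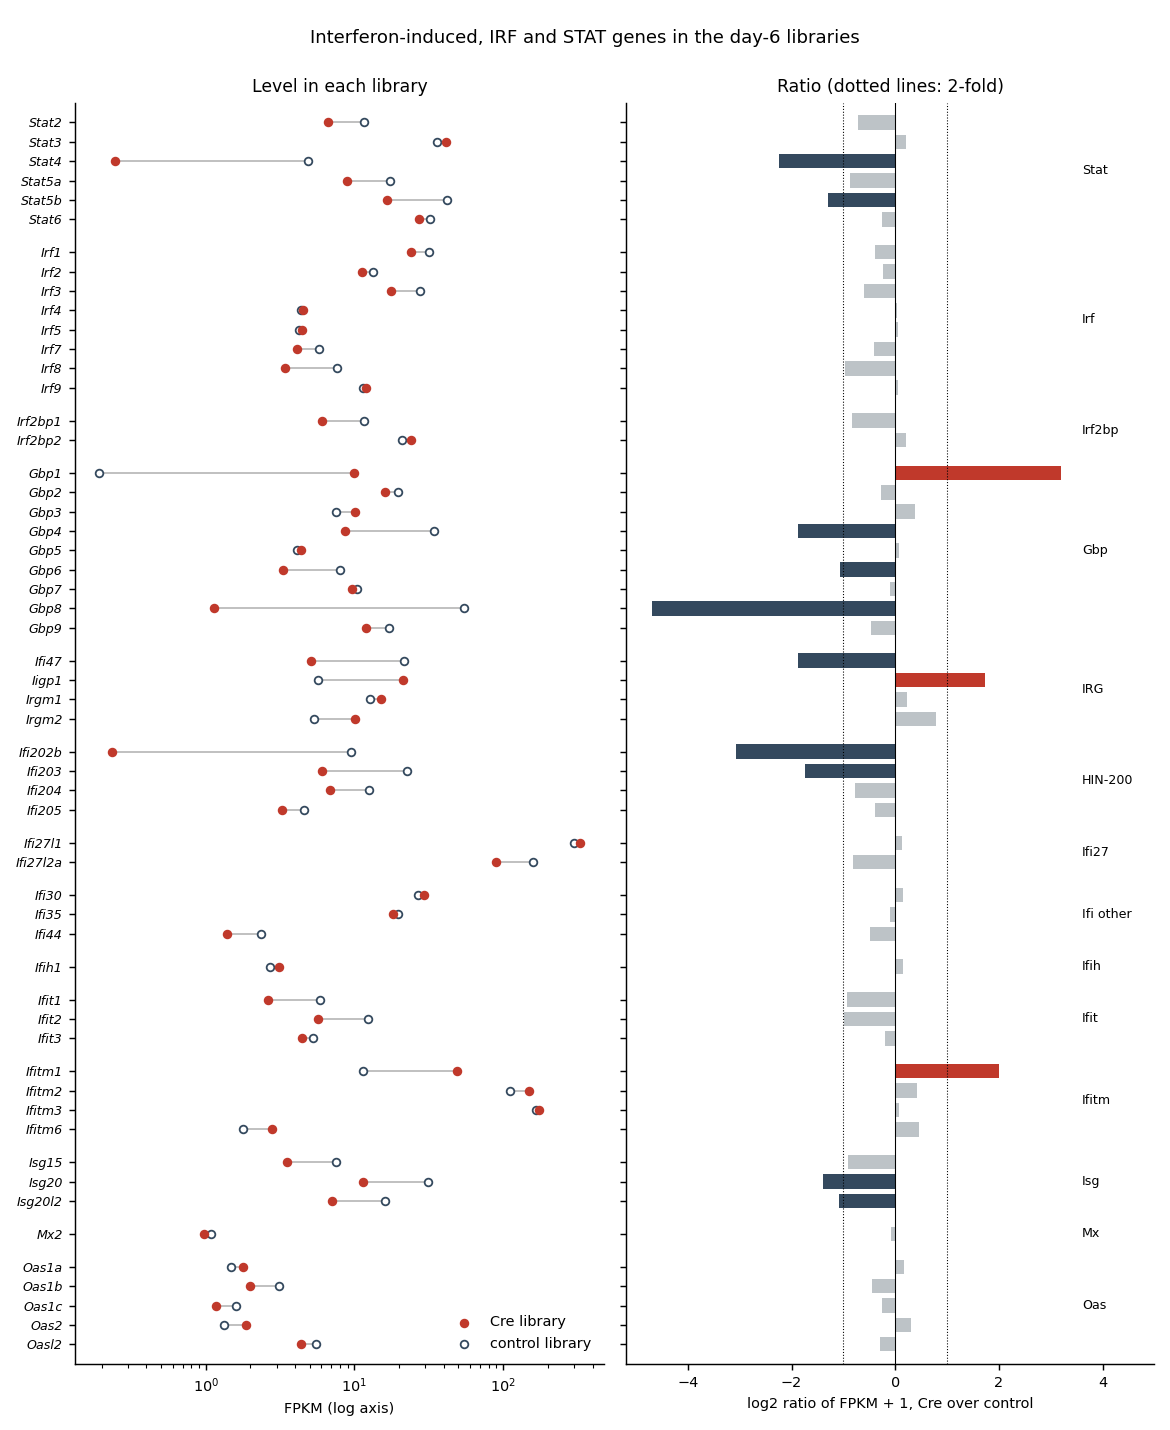
Level in FPKM on a log axis (left) and log2 ratio of FPKM + 1, Cre over control (right), for 55 of the 57 genes by family, with 1 library per genotype and no error bars. Most pairs of points lie close together, while Gbp8 at -4.70 and Gbp1 at 3.20 stand farthest apart in opposite directions.

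The levels span a wide range. Ifi27l1 was the most abundant member, with 327 FPKM in the Cre library and 298 FPKM in the control library. Ifitm3, Ifitm2 and Ifi27l2a came next by the mean of both libraries. These 4 genes made up 58.3% of the summed FPKM of all members in the Cre library and 50.6% in the control library. At the other end Mx2, an antiviral GTPase, had 0.979 FPKM in the Cre library and 1.09 FPKM in the control library. In 4 members (Gbp1, Ifi202b, Mx2 and Stat4) one of the libraries was under 1 FPKM. Ifi202b and Stat4 owe their place to the control library and Gbp1 to the Cre library, so that a difference was built into their selection.

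Among the STAT genes 6 of 7 had lower values in the Cre library, and 2 passed the 2-fold rule. Of all 13419 genes tested, 7254 had lower values in the Cre library, and 10.4% were lower by the rule. Fibroblast and endothelial markers lay higher in the Cre library by 0.42 log2 units. With ratios centred on them, all 7 STAT genes were below equal expression and 4 passed the rule. That centring also put the median of all genes tested at -0.49, with 22.3% of them lower by the rule. Stat4, which carries interleukin-12 signals in T and natural killer cells, had 0.245 FPKM in the Cre library and 4.89 FPKM in the control library (log2 ratio -2.24). The Cre value is under 1 FPKM, and the ratio fell short of 2-fold with a pseudocount of 5. In the authors' deposited table Stat4 had p = 0.00415 and q = 0.191. Stat5b, which answers growth hormone and interleukins, had 16.4 FPKM in the Cre library and 42.0 FPKM in the control library (log2 ratio -1.30). Its neighbour Stat5a, which serves many of the same receptors, had 8.90 and 17.2 FPKM (log2 ratio -0.88). The order of these close copies was thus the same in both libraries, with Stat5b above Stat5a.

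The other STAT genes differed less. Stat2, the partner of IRF9 in the type I interferon pathway, had 6.66 FPKM in the Cre library and 11.5 FPKM in the control library (log2 ratio -0.71). It lay below equal expression without reaching 2-fold. Stat3, which carries signals of the interleukin-6 family, was the only STAT gene with a higher value, at 41.5 FPKM in the Cre library and 35.9 FPKM in the control library. Stat6, of the interleukin-4 pathway, had 27.1 FPKM in the Cre library and 32.4 FPKM in the control library, and shares its locus in the table with Nab2. Stat3 thus led the family in the Cre library, while Stat5b led it in the control library.

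None of the 9 IRF genes reached 2-fold, and their median log2 ratio was -0.23. With the centring on fibroblast and endothelial markers the median was -0.66, all 9 were below equal expression and 2 were lower by the rule. All genes tested then had a median of -0.49, and 22.3% of them were lower. Irf9, the DNA-binding partner of STAT2, had 11.9 FPKM in the Cre library and 11.5 FPKM in the control library (log2 ratio 0.05). Irf1, which interferon-gamma induces, had 24.2 FPKM in the Cre library and 31.9 FPKM in the control library. Irf2, which can oppose IRF1, had 11.3 FPKM in the Cre library and 13.4 FPKM in the control library. The log2 ratios of Irf9, Irf1 and Irf2 thus lay between -0.39 and 0.05. Irf3, which is activated by viral nucleic acid and induces interferon-beta, had 17.7 FPKM in the Cre library and 27.6 FPKM in the control library (log2 ratio -0.61). Irf7, its inducible relative, had 4.10 FPKM in the Cre library and 5.78 FPKM in the control library. Irf8, a factor of myeloid and B cells, came nearest to the rule, at 3.40 FPKM in the Cre library and 7.61 FPKM in the control library (log2 ratio -0.97), and passed it with a pseudocount of 0.1 and with TPM.

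Irf4 and Irf5 had nearly equal values in both libraries. Irf4, known from lymphocytes, had 4.50 FPKM in the Cre library and 4.38 FPKM in the control library. Irf5, known from macrophages, had 4.41 FPKM in the Cre library and 4.24 FPKM in the control library. The order of levels had Irf1 above Irf3 in both libraries, with Irf4, Irf5, Irf7 and Irf8 between 3.40 and 7.61 FPKM. Of the IRF2-binding proteins, Irf2bp1 had 6.04 FPKM in the Cre library and 11.6 FPKM in the control library, and Irf2bp2 had 24.1 and 20.9 FPKM.

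**Figure D2:**
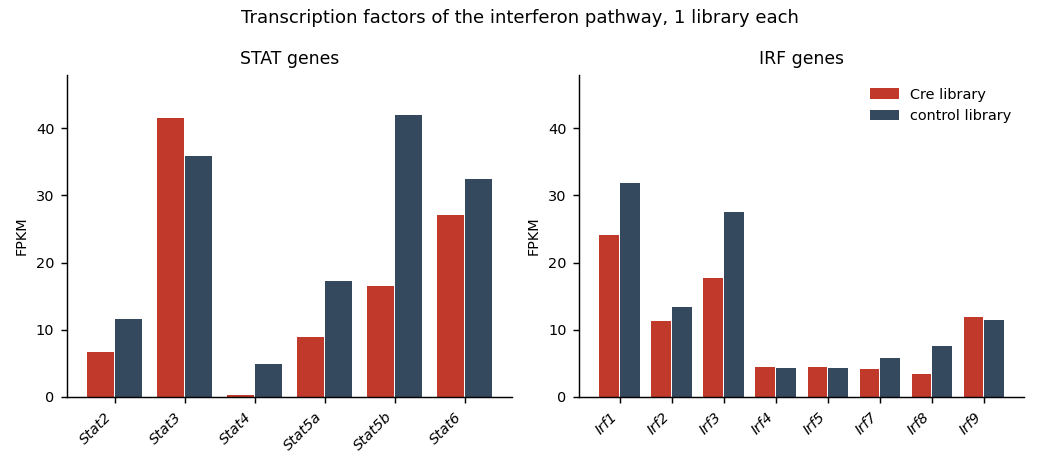
FPKM of 6 STAT genes (left) and 8 IRF genes (right) in the Cre library (red) and the control library (dark), 1 library each, so no error bars. Stat5b stands at 16.4 FPKM in the Cre library against 42.0 FPKM in the control library, while the bars of Irf4, Irf5 and Irf9 are nearly level.

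Guanylate-binding proteins are GTPases that coat and break vacuoles of intracellular pathogens, and their genes lie in separate clusters on chromosomes 3 and 5. The family held both the highest and the lowest ratio of all members. On chromosome 5 all 4 members had lower values in the Cre library, their median log2 ratio was -1.47, and 3 passed the rule. On chromosome 3 the median of 5 genes was 0.08 and Gbp1 alone passed the rule, upwards. The centring on fibroblast and endothelial markers brought that median to -0.34, beside -0.49 over all genes tested. This split by cluster was noticed after the values were seen.

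Gbp8 (NM_029509, mm9 chr5:105443171-105482580) had 1.14 FPKM in the Cre library and 54.5 FPKM in the control library (log2 ratio -4.70). In the authors' deposited table it had p = 1e-04 and q = 0.0226. Gbp4 (mm9 chr5:105544785-105568571) had 8.57 FPKM in the Cre library and 34.1 FPKM in the control library (log2 ratio -1.87). Gbp6 had 3.33 FPKM in the Cre library and 8.04 FPKM in the control library, and its ratio of -1.06 lay just past the rule. Gbp9 had 12.0 FPKM in the Cre library and 17.0 FPKM in the control library (log2 ratio -0.46). Among these 4 genes Gbp8 thus had the highest level in the control library and the lowest in the Cre library.

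Gbp1 (NM_010259, mm9 chr3:142257810-142282140, named Gbp2b in current RefSeq) had 9.97 FPKM in the Cre library and 0.192 FPKM in the control library (log2 ratio 3.20). It ranked at place 4 from the top among all genes tested. In the authors' deposited table it had p = 0.00325 and q = 0.164. The genes on either side of it were close to equal. Gbp2 had 16.0 FPKM in the Cre library and 19.6 FPKM in the control library, and Gbp3 had 10.1 and 7.49 FPKM. Gbp7 had 9.69 FPKM in the Cre library and 10.5 FPKM in the control library, and Gbp5 had 4.37 and 4.09 FPKM.

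**Figure D3:**
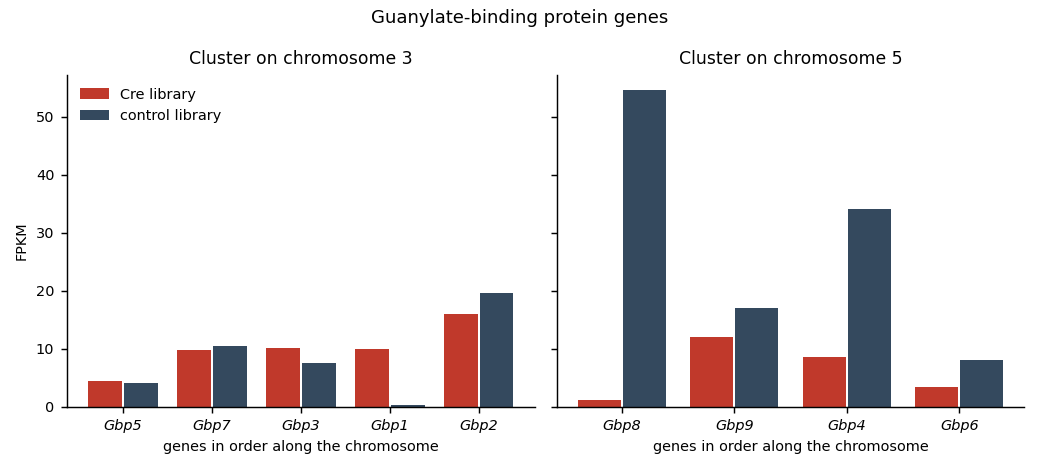
FPKM of the Gbp genes in their order along chromosome 3 (left) and chromosome 5 (right), in the Cre library (red) and the control library (dark), 1 library each. Gbp1 is near 0 in the control library beside neighbours between 4.09 and 19.6 FPKM, and Gbp8 is at 1.14 FPKM in the Cre library beside Gbp9 at 12.0 FPKM.

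Close copies can share reads, so stretches of 50 bases that recur exactly between transcripts of a family were counted. In the chromosome 5 cluster 16.3% of the 50-base stretches of Gbp8 recurred in another Gbp member, as did 12.6% for Gbp6, 9.02% for Gbp4 and 6.37% for Gbp9. For Gbp1 the share was 1.84%, all of it with Gbp2. Reads that lie wholly within these stretches fit more than a single gene, which can make the values of the chromosome 5 genes less certain. The effect on these values was not tested. The largest share was that of Stat5a, with 17.1% found in Stat5b. Ifi204 and Ifi205 shared 2.58% and 3.71%, and Ifitm3 shared 5.56% with its relatives. In 40 of 57 members no such stretch recurred in another member of the same family. Genes outside the 57 members and other transcripts of the same genes were not compared, so stretches shared with those are not counted.

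Promoters of the members were searched for both response elements. RefSeq promoter sequences (GRCm38.p6, 250 bases before to 50 after the gene start) were found for 44 of 57 members. The 13 without an entry include 4 of the called members, Gbp4, Gbp6, Gbp8 and Iigp1, as well as Gbp9, so the counts below leave these out. The ISRE motif was searched as GAAA, then NN (any 2 bases), then GAAA, and the GAS motif as TTCNNNGAA, on both strands, and overlapping matches were counted separately. An ISRE match was found in 20 of 44 members (45.5%), beside 3.99% of 27025 genes and 3.44% of 32851 promoters. A GAS match was found in 14 of 44 (31.8%), beside 9.55% of genes and 8.30% of promoters. The median log2 ratio was -0.15 for the 20 members with an ISRE match, of which 1 was higher and 2 lower. It was -0.40 for the 24 members without one, of which 1 was higher and 5 lower. A match of letters is not a binding site, and no factor was measured here.

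All 5 Gbp genes of chromosome 3 held an ISRE match. They are shown to set Gbp1, the gene with the highest ratio, beside neighbours whose levels were close to equal. Capitals mark 1 match in each, which in these genes lies on the opposite strand and so reads TTTC, NN, TTTC.
Gbp1 (GRCm38.p6 chr3:142594690-142594739, plus strand): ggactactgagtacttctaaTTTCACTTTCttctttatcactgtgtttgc
Gbp2 (GRCm38.p6 chr3:142620584-142620633, plus strand): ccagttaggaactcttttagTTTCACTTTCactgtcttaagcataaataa
Gbp3 (GRCm38.p6 chr3:142559979-142560028, plus strand): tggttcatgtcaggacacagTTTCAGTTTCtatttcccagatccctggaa
Gbp5 (GRCm38.p6 chr3:142496749-142496798, plus strand): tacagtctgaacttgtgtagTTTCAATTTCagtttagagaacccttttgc
Gbp7 (GRCm38.p6 chr3:142530263-142530312, plus strand): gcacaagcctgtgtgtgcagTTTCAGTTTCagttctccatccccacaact
The match began 137 bases before the gene start in Gbp1, 59 in Gbp2, 45 in Gbp3, 165 in Gbp5 and 53 in Gbp7. Gbp3 holds another match that overlaps the marked one and begins 39 bases before the gene start. Gbp1 and Gbp2 carry the same 10 letters, at log2 ratios of 3.20 and -0.28.

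Immunity-related GTPases, which act on the same pathogen vacuoles as the Gbp proteins, also diverged. Iigp1 was higher, with 21.2 FPKM in the Cre library and 5.73 FPKM in the control library (log2 ratio 1.72). Ifi47 was lower, with 5.11 FPKM in the Cre library and 21.5 FPKM in the control library (log2 ratio -1.88). Its locus overlaps those of Olfr56 and Olfr1396, which were under 1 FPKM in both libraries. The regulatory members Irgm1 and Irgm2 had higher values in the Cre library short of the rule. Their relative Igtp, outside the symbol pattern, had a lower value in the Cre library (log2 ratio -0.20). Relative to fibroblast and endothelial markers, 2 of the 4 family members were above and 2 below equal expression. Irgm1 had 15.0 FPKM in the Cre library and 12.6 FPKM in the control library. Irgm2 had 10.04 FPKM in the Cre library and 5.36 FPKM in the control library, and its log2 ratio of 0.80 passed 2-fold with the same upper quartile.

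The HIN-200 genes encode nuclear and cytoplasmic proteins that bind DNA, and all 4 had lower values in the Cre library (median log2 ratio -1.26). Ifi202b (mm9 chr1:175892699-175912975) had 0.233 FPKM in the Cre library and 9.41 FPKM in the control library (log2 ratio -3.08). In the authors' deposited table it had p = 0.0026 and q = 0.145. Ifi203 had 6.01 FPKM in the Cre library and 22.5 FPKM in the control library (log2 ratio -1.75). Ifi204 had 6.89 FPKM in the Cre library and 12.5 FPKM in the control library, and Ifi205 had 3.26 and 4.58 FPKM. The log2 ratios of the family thus ran between -3.08 for Ifi202b and -0.39 for Ifi205.

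Antiviral effectors of type I interferon differed by less. The Ifit proteins bind foreign RNA ends, and their 3 genes were all below equal expression without reaching 2-fold. Ifit2 had 5.72 FPKM in the Cre library and 12.4 FPKM in the control library (log2 ratio -0.996). Ifit1 had 2.63 FPKM in the Cre library and 5.89 FPKM in the control library, and Ifit3 had 4.42 and 5.25 FPKM. Isg15, a ubiquitin-like protein, had 3.51 FPKM in the Cre library and 7.51 FPKM in the control library (log2 ratio -0.92). Ifit1, Ifit2 and Isg15 lay close to the threshold and passed it with a pseudocount of 0.1, whereas Ifit3 had a log2 ratio of -0.21. The promoters of Ifit1 and Isg15, which are among the classic interferon targets, are shown beside that of Stat4. Ifit1 and Isg15 hold 2 and 3 ISRE matches, whereas Stat4 had a much lower ratio with a single match. Other members with 2 matches include Ifit3 at -0.21, Irgm1 at 0.23 and Gbp3 at 0.38. Those with a single match include Gbp1 at 3.20 and Gbp7 at -0.10. A relation of match number to ratio was not tested.
Ifit1 (GRCm38.p6 chr19:34640765-34640814, plus strand): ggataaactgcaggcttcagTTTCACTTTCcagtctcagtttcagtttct
Isg15 (GRCm38.p6 chr4:156200861-156200910, minus strand): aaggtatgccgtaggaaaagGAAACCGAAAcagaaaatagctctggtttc
Stat4 (GRCm38.p6 chr1:52008123-52008172, plus strand): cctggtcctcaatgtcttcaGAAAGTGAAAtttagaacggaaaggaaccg
Capitals mark 1 match in each of these, and the further matches of Ifit1 and Isg15 are not marked.

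Isg20, an exonuclease that degrades RNA, had 11.3 FPKM in the Cre library and 31.4 FPKM in the control library (log2 ratio -1.39). Isg20l2, a related exonuclease of ribosome assembly, had 7.11 FPKM in the Cre library and 16.2 FPKM in the control library (log2 ratio -1.08, just past the rule). Oligoadenylate synthetases, which activate RNase L on double-stranded RNA, were low and close to equal. Their 5 members had between 1.18 and 4.36 FPKM in the Cre library and between 1.33 and 5.55 FPKM in the control library, with log2 ratios from -0.45 for Oas1b to 0.30 for Oas2. Oasl2 was the most abundant, at 4.36 FPKM in the Cre library and 5.55 FPKM in the control library. Ifih1, the RNA sensor MDA5, had 3.10 FPKM in the Cre library and 2.71 FPKM in the control library.

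Ifitm proteins sit in membranes and block viral entry, and their genes had higher values in the Cre library in 4 of 4 members. Ifitm1 had 48.7 FPKM in the Cre library and 11.4 FPKM in the control library (log2 ratio 2.005). In the authors' deposited table it had p = 0.0355 and q = 0.669. The more abundant Ifitm3 had 174 FPKM in the Cre library and 167 FPKM in the control library, and Ifitm2 had 148 and 111 FPKM. Ifitm6 had 2.81 FPKM in the Cre library and 1.77 FPKM in the control library. Relative to fibroblast and endothelial markers, Ifitm1 was still past 2-fold, at a log2 ratio of 1.58. Ifitm3 lay below equal expression at -0.36, while Ifitm2 at -0.003 and Ifitm6 at 0.04 were about equal.

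The other Ifi genes did not reach 2-fold. Ifi27l2a, a small membrane protein gene next to Ifi27l1, had 89.1 FPKM in the Cre library and 158 FPKM in the control library (log2 ratio -0.82). Ifi30, a thiol reductase of lysosomes that prepares antigens, had 29.6 FPKM in the Cre library and 26.6 FPKM in the control library. Ifi35 had 18.1 FPKM in the Cre library and 19.5 FPKM in the control library, and Ifi44 had 1.39 and 2.37 FPKM. The 7 matching genes under a mean of 1 FPKM were Gbp11, Ifi27l2b, Ifitm5, Mx1, Oas1g, Oas3 and Oasl1, and the highest of their values was 1.12 FPKM, for Gbp11 in the control library and for Ifi27l2b in the Cre library.

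Upstream of these genes, none of 6 receptor chains and none of 4 JAK kinases passed the rule, and Ifnk, the only interferon of the list with a value in the table, was under a mean of 1 FPKM. Ifngr1, a chain of the interferon-gamma receptor, had 71.1 FPKM in the Cre library and 119 FPKM in the control library, and Jak1 had 32.5 and 56.2 FPKM. Ifnar1, of the type I receptor, had 8.82 FPKM in the Cre library and 14.4 FPKM in the control library, whereas its partner Ifnar2 had 41.3 and 44.6 FPKM. Il28ra, of the lambda receptor, had 1.79 FPKM in the Cre library and 0.645 FPKM in the control library, and stayed under the rule through the pseudocount of 1. With a pseudocount of 0.1 or with TPM, 1 receptor chain was higher. Of 13 inhibitors of the pathway 1 was higher and 2 were lower, beside 6.07% higher and 10.4% lower of all genes tested. Socs1, which blocks JAK kinases and is abundant in thymocytes, had 1.42 FPKM in the Cre library and 34.2 FPKM in the control library (log2 ratio -3.86). Ptpn6, a phosphatase of blood cells, had 5.04 FPKM in the Cre library and 43.9 FPKM in the control library, while Socs2 had 41.2 and 17.3 FPKM. Usp18, which removes Isg15 from proteins, had 4.02 FPKM in the Cre library and 5.52 FPKM in the control library.

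Sensors and further interferon-stimulated genes were lower more often than higher. Of 18 sensors and adaptors 4 were lower and 0 higher, beside 10.4% lower and 6.07% higher of all genes tested. Their median log2 ratio was -0.48, beside -0.07 over all genes tested. None passed the rule with a pseudocount of 5, where 6.00% of all genes tested were lower and 1.77% higher. The lowest was Ikbke, a kinase that activates IRF3, at 3.36 FPKM in the Cre library and 11.1 FPKM in the control library, followed by Aim2, Zbp1 and Traf6. Of 36 other interferon-stimulated genes 12 were lower and 0 higher, beside 10.4% lower and 6.07% higher of all genes tested. Their median was -0.70, beside -0.07 over all genes tested. The 12 became 7 with a pseudocount of 5, where 6.00% of all genes tested were lower. They became 21 with the centring on fibroblast and endothelial markers, where 22.3% of all genes tested were lower. Psmb8, a subunit of the immunoproteasome, had 12.1 FPKM in the Cre library and 90.5 FPKM in the control library. The chemokine genes Ccl5 and Cxcl10 had 0.534 and 0.449 FPKM in the Cre library, against 6.23 and 4.82 FPKM in the control library. Sp100, of nuclear bodies, had 9.26 FPKM in the Cre library and 36.4 FPKM in the control library. Other textbook interferon targets were nearly equal, with Bst2 at 47.3 FPKM in the Cre library and 48.2 FPKM in the control library and Eif2ak2 at 7.70 and 7.68 FPKM.

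**Figure D4:**
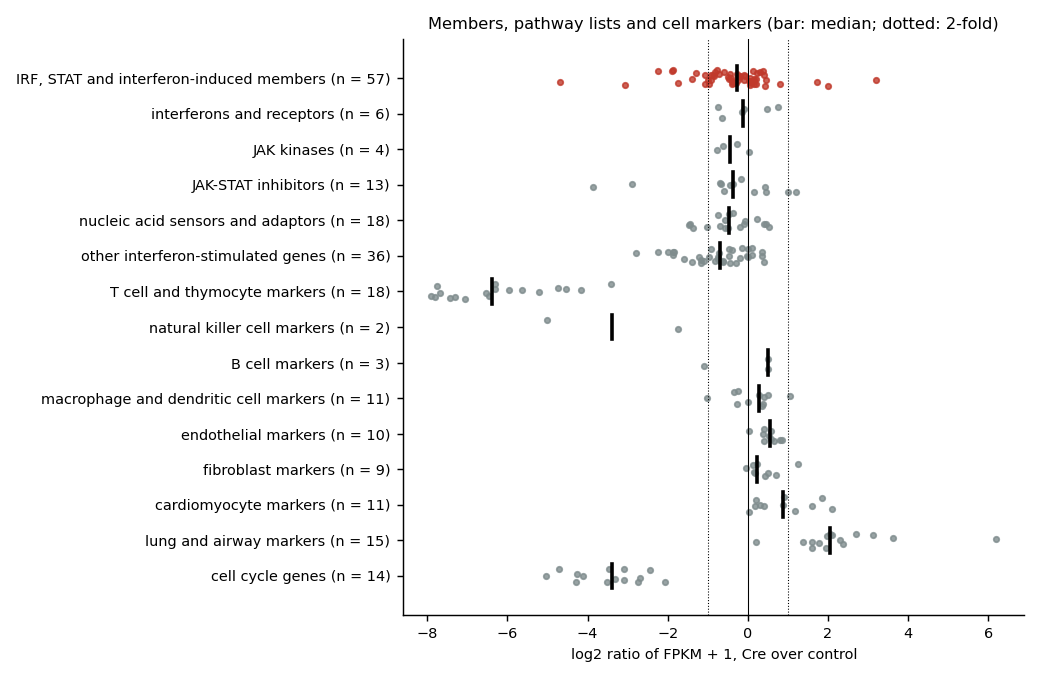
Log2 ratio of FPKM + 1, Cre over control, for each measured gene (points) of the members, 5 pathway lists and 9 marker lists, with black bars at the medians and 1 library per genotype. The members centre on -0.28, between the T cell and thymocyte markers at -6.38 and the lung and airway markers at 2.04.

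Markers of other cells that use these genes were set beside the members. Natural killer cell genes were weak, and the highest was Gzma, also a T cell gene, which had 0.238 FPKM in the Cre library and 39.1 FPKM in the control library. Of 7 such genes 7 were under 1 FPKM in the Cre library and 4 in the control library. Macrophage and dendritic cell markers had a median log2 ratio of 0.28 over 11 genes, of which 7 lay above and 4 below equal expression. With the centring on fibroblast and endothelial markers their median was -0.14, beside -0.49 over all genes tested. By the 2-fold rule 1 of the 11 was higher and 1 lower, beside 6.07% and 10.4% of all genes tested. The higher gene was Cd14, with 15.8 FPKM in the Cre library and 7.17 FPKM in the control library. The lower gene was Cd68, with 7.87 and 16.8 FPKM. Lyz2 had 495 FPKM in the Cre library and 349 FPKM in the control library, whereas C1qa had 63.1 and 81.2 FPKM. The summed level of all 14 listed genes was 783 FPKM in the Cre library and 670.1 FPKM in the control library, most of it Lyz2. Endothelial markers lay above equal expression in 10 of 10 genes, with a median of 0.56 and none past 2-fold. B cell markers were low, with 4 of 8 under 1 FPKM in the Cre library and 6 of 8 in the control library. The part of any of these cells in the levels of the members was not tested.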

How the data were processed

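The submitters' processing notes name TopHat, Bowtie and Cufflinks as tools and mm9 as the genome build. Versions, annotation, strand use and library scaling: not given in the sources used here, so whether reads were counted by strand is unknown. The authors deposited 1 table with a value per gene and library, taken as FPKM from the column layout per the file headers. A log2 fold change, its score (the test statistic) and a p-value with q-value were deposited by the authors beside them and compare 2 libraries, not genotypes. The absolute read depth is unknown, so no counting interval is given.

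The 2 rows with status HIDATA were left out. Log2 ratios of FPKM + 1 (pseudocount 1), Cre over control, were computed with pandas 2.3.3 where the mean reached 1 FPKM, with code checked on input of known ratios. The pseudocount understates changes of weak genes. Values of 2 members are not reported singly here. Members and lists were chosen with earlier results of these data known, and the Ifi symbols were divided by protein family after values were seen. Named genes were every member at 2-fold or more, all STAT and IRF genes, the most abundant of each family and up to 4 members of each list, with others named for context. Shared transcript stretches came from GENCODE M21. Alternatives were pseudocounts of 0.1 and 5, no minimum or 5 FPKM, equal upper quartiles, TPM (each library scaled to 1e6), leaving out Irf2bp genes or shared loci, and, added after seeing the data, centring on fibroblast and endothelial markers.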

Additional observations from a re-analysis of the deposited data

How the results depend on the processing

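The counts of 3 higher and 10 lower members stayed within 1.5 times under every planned setting, but those of all genes tested moved further. With a pseudocount of 5, 238 of all genes tested were higher and 805 lower. With a pseudocount of 0.1 these were 1262 and 1693, and with the same upper quartile 1342 and 1105. The member counts thus do not show a steady difference from all genes tested. With ratios centred on fibroblast and endothelial markers, a shift of 0.42 chosen after seeing the data, 20 members were lower and 3 higher. Of all genes tested, 22.3% were lower and 2.38% higher with that centring. The median log2 ratio of the members was -0.10 with the same upper quartile and -0.70 with that centring, where the medians of all genes were 0.13 and -0.49. Gbp1, Ifitm1 and Iigp1 stayed higher, and Gbp4, Gbp8, Ifi202b, Ifi203, Ifi47, Isg20 and Stat5b stayed lower, under both other pseudocounts, the upper quartile, TPM and the centring. Gbp6 and Isg20l2 fell short of 2-fold with a pseudocount of 5 or the same upper quartile, and Stat4 with a pseudocount of 5. No paired analysis was possible because there is 1 library per genotype, and for the same reason no library could be left out. Unknown depth limits the values under 1 FPKM.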

Other observations

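Relatives of the same protein families whose symbols differ from the pattern were read out after the members' values had been seen. In the HIN-200 cluster Mndal had 7.32 FPKM in the Cre library and 19.6 FPKM in the control library (log2 ratio -1.30), and Mnda had 2.21 and 2.51 FPKM. Pyhin1 was weak, at 0.431 FPKM in the Cre library and 1.16 FPKM in the control library. Among immunity-related GTPases Igtp, the relative of Irgm1 and Irgm2 on chromosome 11, had 11.6 FPKM in the Cre library and 13.5 FPKM in the control library, and Irgq had 4.36 and 7.72 FPKM. Gm12250 had 1.51 FPKM in the Cre library and 1.21 FPKM in the control library.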
